A study of Mus musculus with 22 samples.

Results

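The comparison set the hypothalamus of mice 1 day after the start of vehicle injections against that of mice 6 h after it, with no drug in either group. Its members are 8 of the 22 arrays of the series: the 4 labelled as lean DMSO mice at 1 day and the 4 labelled as lean DMSO mice at 6 h. The members were chosen by label alone. Dimethyl sulfoxide (DMSO) is the solvent that carried celastrol, a plant triterpenoid, in the other arms of the study. All mice were lean male C57BL/6J animals, 8 weeks old and kept on normal chow for 2 weeks, and both groups received intraperitoneal DMSO at 25 µl per day. There is no uninjected group, so neither time point shows what DMSO itself or the injection does. Levels of the celastrol arrays (3 at 1 day, 4 at 6 h) and of the 4 DMSO arrays at 4 days are given only where named, but the spread behind every SE, interval and p-value, and the brightness filter, come from all 22 arrays. The labels call the arrays biological replicates without saying how many animals stand behind each, so the p-values measure the spread between these samples. The sources used here do not give the hour of killing, the array batches or how many injections the mice at 1 day had received. Time since the first injection, number of injections, hour of the day and array batch cannot be told apart in this comparison.

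The hypothalamus controls feeding, body temperature, the stress axis and daily rhythms. Its cells, like most cells of the body, hold a clock in which the activators Clock and Arntl (BMAL1) switch on the repressors of the Per and Cry families through E-box elements. Output factors of the same loop, such as Dbp, Tef and Hlf, act through D-boxes, and the receptors of the Nr1d (REV-ERB) and Ror families act through the element known as RORE. Tissue taken at different hours of the day is therefore known to differ in these genes, and an injection is known to raise glucocorticoid hormone for some hours.

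Array medians lay between 8.60 and 8.63 log2 units at 1 day and between 8.58 and 8.62 at 6 h. An array correlated with its group, over all probe sets and on average, at 0.995 to 0.997 at 1 day and at 0.996 for each array at 6 h. DMSO 1 day replicate 1 stood furthest from its group, with a residual SD over genes of 0.110 log2 units, against 0.0694 to 0.0960 in the other 7 arrays. The labelled tissue fits its markers: Hcrt (orexin), a peptide made only by lateral hypothalamic neurons in the brain, averaged 13.08 ± 0.17 at 1 day and 12.78 ± 0.12 at 6 h (SD, n = 4 each). The log2 of the summed intensity of 26 measured markers of hypothalamic nuclei was 15.16 to 15.39 at 1 day and 15.04 to 15.21 at 6 h.

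No gene passed the test between DMSO 1 day and DMSO 6 h. Each gene is represented by its brightest probe set with a single symbol, and 9880 genes were bright enough to test. limma called 0 of them (0%) at a Benjamini-Hochberg adjusted p under 0.05, and the lowest adjusted p was 0.0593. With the limit raised to an adjusted p of 0.10, 50 genes (0.506%) were inside it, 48 of them with higher and 2 with lower values at 1 day. At an unadjusted limma p under 0.05 there were 1389 genes (14.1%), 1148 higher (11.6%) and 241 lower (2.44%) at 1 day. The other limma settings tried called between 0 and 46 genes. With the 8 arrays alone in the fit limma again called 0, the lowest adjusted p was 0.334, and 1008 genes had an unadjusted p under 0.05. The 46, of which 43 had higher values at 1 day, came when DMSO 6 h replicate 3 was left out.

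The differences were small. The median over all genes tested was 0.0262 log2 units, with quartiles of -0.0222 and 0.0746. The median standard error was 0.0529, so a typical 95% interval reached 0.11 log2 units to either side. Only 87 genes (0.881%) differed by more than 0.25 log2 units and 8 (0.081%) by more than 0.5. The 4 arrays at 1 day all lay above the 4 at 6 h for 493 genes (4.99%) and all below for 98 genes (0.992%).

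The excess of higher over lower genes depended on how the arrays were scaled. On the deposited values 82.6% of the genes at an unadjusted p under 0.05 were higher at 1 day. Centring each array on its median moved the median difference to 0.0045 and that share to 61.3% (740 higher, 468 lower). A second quantile normalization gave 58.8% (741 higher, 519 lower), and centring on the median of the genes tested gave 47.7% (582 higher, 639 lower). Differences of single genes below are on the deposited scale, on which the middle gene stood 0.0262 above 0.

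**Figure D1:**
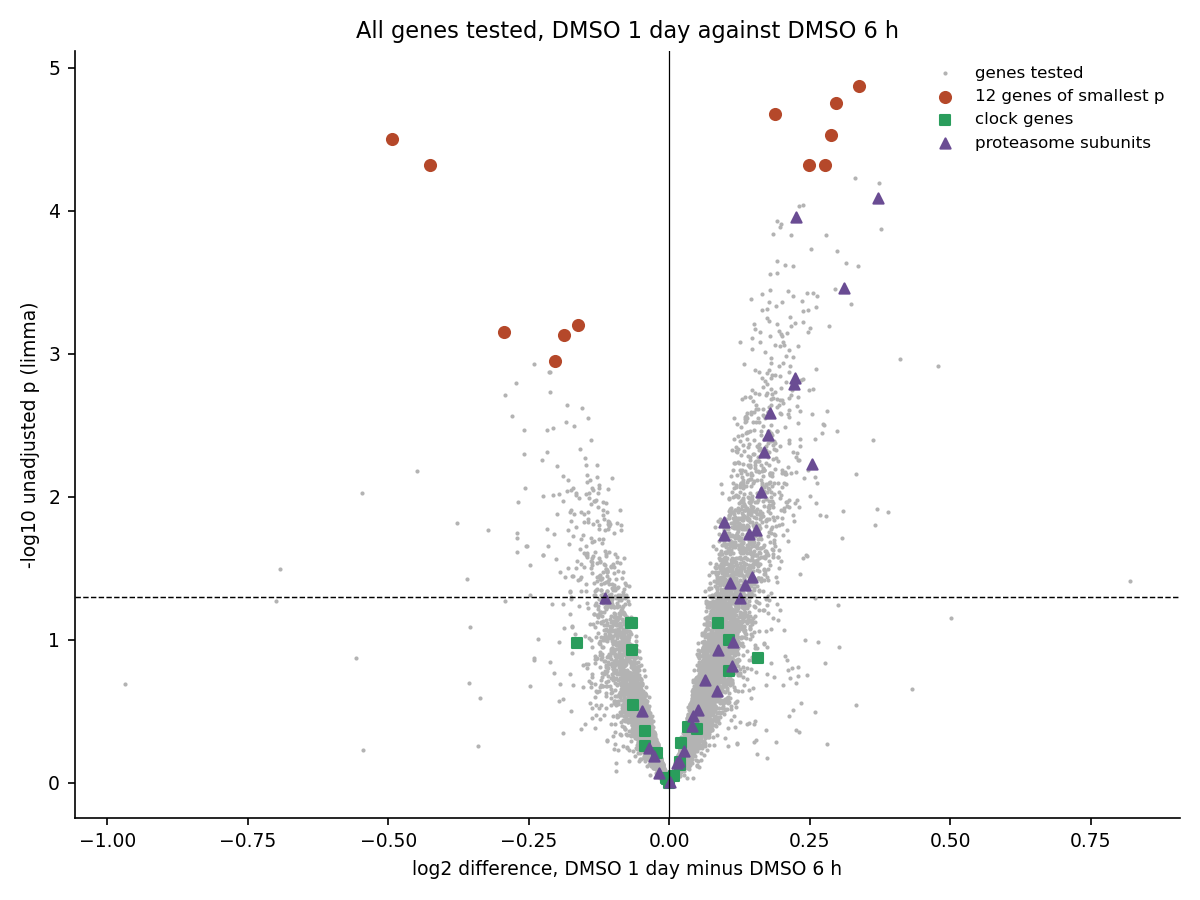
Each point is 1 of the 9880 genes tested, with the log2 difference (DMSO 1 day minus DMSO 6 h) on the x axis and -log10 of the unadjusted limma p on the y axis; the dashed line marks an unadjusted p of 0.05. The 21 clock genes (squares) all sit below the line, and 17 of 35 proteasome subunits (triangles) sit above it on the right. Of all genes tested 11.6% sit above the line on the right and 2.44% on the left. The proteasome family was chosen after its values were seen. The 12 genes of smallest p in the 2 directions among those eligible for naming (circles) lie near the top of each arm.

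Park7, Laptm5, Exoc3, Ikbkg, Cox5a and Zfp622 had the smallest p-values among genes with higher values at 1 day. Each had an adjusted limma p of 0.0593. Park7 encodes DJ-1, a redox-sensing protein whose loss causes an early-onset form of parkinsonism in humans. It measured 12.24, 12.03, 12.02 and 12.004 log2 units at 1 day, against 11.64, 11.78, 11.84 and 11.68 at 6 h. The groups did not overlap, and replicate 1 stood above the other 3 arrays at 1 day. The difference was 0.34 ± 0.06 (SE), a factor of 1.26, and the exact two-sided permutation p was 0.0286, the smallest that 4 against 4 arrays can give. Any gene whose groups do not overlap gets that permutation p, and Park7 was picked from these same arrays, so that p adds no support.

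Laptm5, a lysosomal membrane protein of immune cells and microglia, measured 10.30, 10.18, 10.18 and 10.15 at 1 day, against 10.01, 9.78, 9.98 and 9.85 at 6 h. All 4 arrays at 1 day were higher than every array at 6 h, by a mean of 0.30 ± 0.05 (SE). Ikbkg (NEMO), the regulatory subunit of the kinase that releases NF-kB, measured 9.40, 9.13, 9.17 and 9.20 at 1 day, against 8.90, 8.97, 9.01 and 8.86 at 6 h. Here too the groups were apart, with replicate 1 the highest at 1 day and a mean difference of 0.29 ± 0.06 (SE).

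Cox5a, a subunit of cytochrome c oxidase, measured 11.03, 10.98, 11.14 and 11.09 at 1 day, against 10.77, 10.73, 10.87 and 10.86 at 6 h. Its groups were 0.25 ± 0.05 (SE) apart, and replicate 1 was not the highest at 1 day. The exocyst subunit Exoc3 differed by 0.19 ± 0.04 and the zinc finger protein Zfp622 by 0.28 ± 0.06 (SE), again with no overlap. At 4 days of DMSO all 6 genes had means between those of 6 h and 1 day: Park7 averaged 11.86, Laptm5 10.07, Exoc3 10.10, Ikbkg 9.10, Cox5a 10.94 and Zfp622 9.37.

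**Figure D2:**
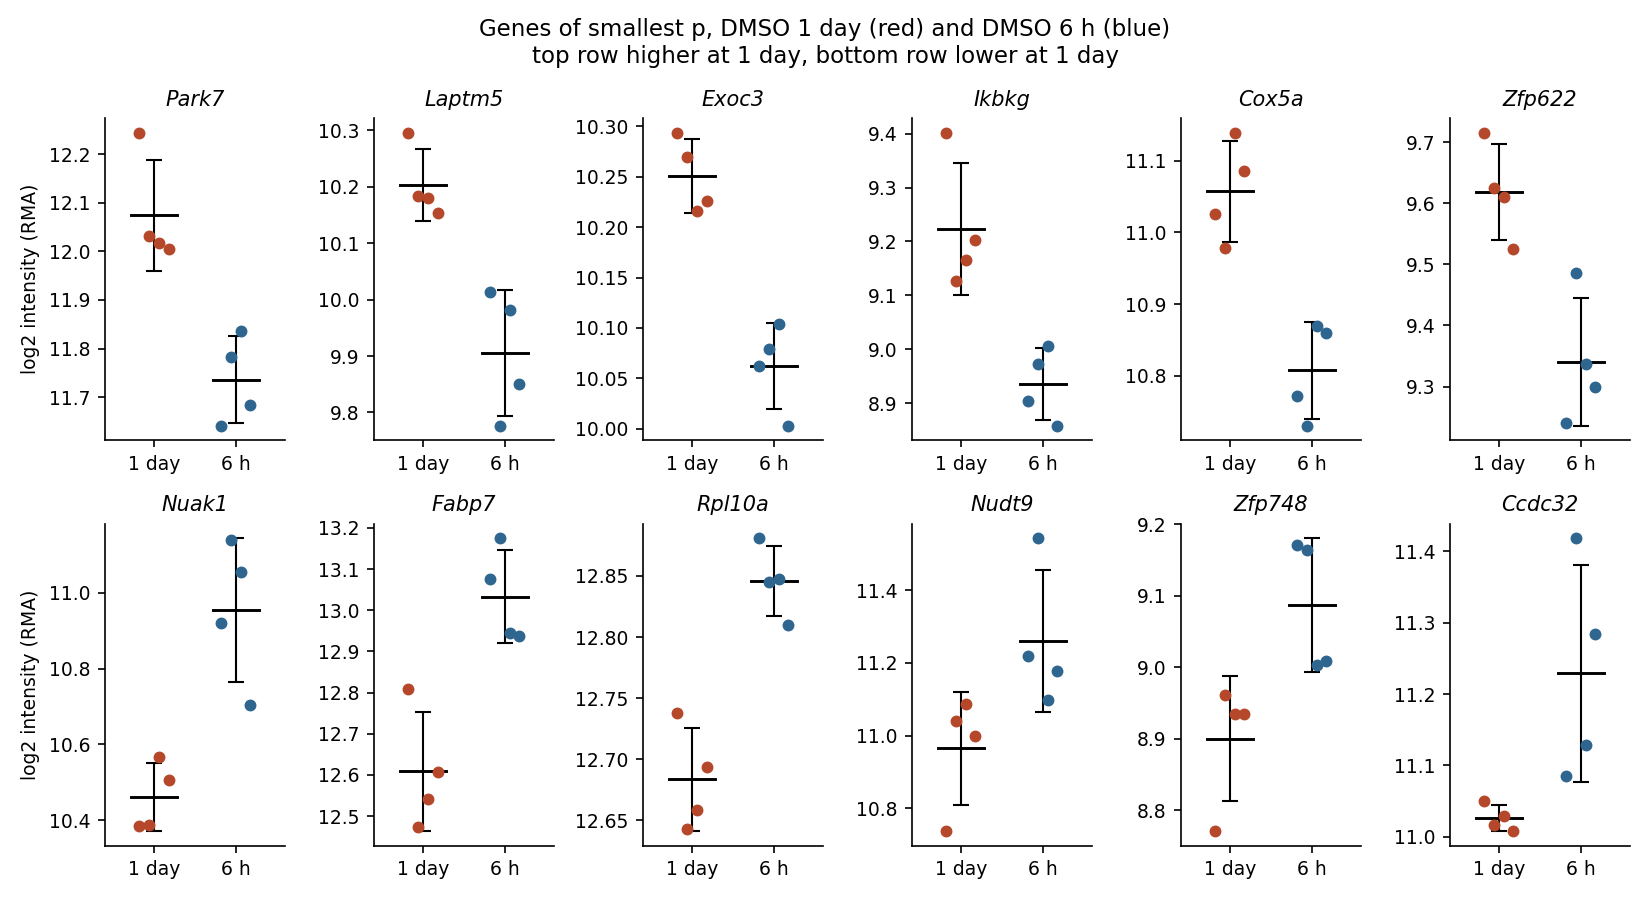
Log2 intensity (y axis, not starting at 0) in each DMSO array of the 12 genes of smallest p among those eligible for naming. Arrays at 1 day are red (left) and those at 6 h blue (right), and bars are the mean and SD of 4 arrays. In all 12 genes the groups do not overlap, and the means differ by 0.16 to 0.49 log2 units. The 12 were picked for small p in these same arrays. Of all genes tested 4.99% did not overlap with higher values at 1 day and 0.992% with lower ones.

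Fabp7 and Nuak1 led the genes with lower values at 1 day, both at an adjusted limma p of 0.0593. Fabp7 is the brain fatty acid-binding protein of astrocytes, radial glia and tanycytes. In mouse brain its transcript is known to follow the daily cycle and to be repressed by the REV-ERB receptors. It measured 12.81, 12.47, 12.54 and 12.61 at 1 day, against 13.08, 13.18, 12.95 and 12.94 at 6 h. Every array at 1 day was below every array at 6 h. The difference was -0.43 ± 0.08 (SE). The exact two-sided permutation p of 0.0286 follows, as for Park7, from the lack of overlap and adds no support. At 4 days of DMSO the 4 arrays measured 12.81, 12.87, 12.60 and 12.70, so all of them also lay below the 6 h arrays.

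Nuak1, a kinase related to AMPK, had the widest difference of the 12 genes. It measured 10.38, 10.39, 10.57 and 10.51 at 1 day, against 10.92, 11.14, 11.05 and 10.70 at 6 h. The groups did not overlap, although 6 h replicate 4 lay close to the highest array at 1 day, and the difference was -0.49 ± 0.09 (SE). Of the genes eligible for naming, Rpl10a, a protein of the large ribosomal subunit, came next, with a difference of -0.16 ± 0.04 (SE). Nudt9, an ADP-ribose pyrophosphatase, followed with -0.29 ± 0.07 (SE). Both had an adjusted limma p of 0.104, as had Zfp748 (-0.19 ± 0.05). Ccdc32 (-0.20 ± 0.05) had an adjusted limma p of 0.127.

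The promoters of Fabp7 and Nudt9 are shown because among the 11 of the 12 genes with a promoter in the RefSeq table they were the 2 that held a clock element. Each line gives the 250 bases before the start site (GRCm38.p6, chr10:57784673-57784922, plus strand and chr5:104046614-104046863, plus strand), 5′ to 3′ along the gene, with matches in capitals. The search also took in the 50 bases after the start site and both strands.
Fabp7 promoter: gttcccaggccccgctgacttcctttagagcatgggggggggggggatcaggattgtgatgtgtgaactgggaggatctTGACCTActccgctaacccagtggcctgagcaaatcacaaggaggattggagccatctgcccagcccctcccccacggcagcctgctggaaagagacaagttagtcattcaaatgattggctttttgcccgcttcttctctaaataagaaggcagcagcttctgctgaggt
Nudt9 promoter: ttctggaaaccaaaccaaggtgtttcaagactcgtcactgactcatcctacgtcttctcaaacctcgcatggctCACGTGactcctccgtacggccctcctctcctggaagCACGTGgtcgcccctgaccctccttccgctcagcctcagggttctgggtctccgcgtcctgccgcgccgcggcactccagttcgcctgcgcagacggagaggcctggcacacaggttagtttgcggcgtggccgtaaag
In Fabp7 the capitals are a RORE (TAGGTCA, here read on the other strand), whose first base lies at -171 from the start site. RORE letters occurred in 2.61% of 32851 RefSeq promoters. Nudt9 held a pair of E-boxes (CACGTG) at -176 and -139, and 7.15% of promoters held at least 1. The 11 genes had 15 promoters in all, of which 1 held a RORE and 1 held an E-box. A match describes letters and is not a bound site.

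No clock gene came near the threshold. Of 24 listed clock and output genes 21 were tested, and 0 of 21 had an unadjusted limma p under 0.05 in either direction, against 11.6% and 2.44% of all genes tested. No clock gene had arrays that did not overlap. The median difference was 0.00 log2 units, and the single differences ran from -0.16 (Rora) to 0.16 (Ciart). Every 95% interval lay within -0.36 and 0.37 log2 units. On arrays centred on the median of the genes tested, 3 of the 21 had an unadjusted p under 0.05, all with lower values at 1 day, and the list's median was -0.0310. On that scale 582 of all genes tested were higher and 639 lower at the same limit.

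Per2, a repressor of the loop, measured 9.31, 9.54, 9.54 and 9.56 at 1 day, against 9.44, 9.47, 9.55 and 9.45 at 6 h. The groups overlapped fully, and 1 day replicate 1 was the lowest of the 8. Its difference was 0.01 ± 0.06 (SE), with a 95% interval of -0.12 to 0.13. Per1, which responds to light and to glucocorticoids, measured 9.82, 10.10, 10.26 and 10.17 at 1 day, against 10.13, 10.09, 10.24 and 10.08 at 6 h. It too overlapped, with a difference of -0.04 ± 0.07 (SE). Without 1 day replicate 1 the difference of Per1 was 0.0460, so its sign rested on that array.

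Dbp, an output factor whose transcript swings widely over the day in many tissues, measured 10.76, 10.73, 10.73 and 10.64 at 1 day, against 10.66, 10.72, 10.72 and 10.69 at 6 h. The groups overlapped, and the difference was 0.02 ± 0.06 (SE). Nr1d1 (REV-ERBα) differed by -0.02 ± 0.04, Nr1d2 by 0.02 ± 0.03, Tef by 0.02 ± 0.05 and Bhlhe41 by -0.01 ± 0.07 (SE). The activators Arntl and Clock differed by -0.06 ± 0.06 and -0.07 ± 0.04 (SE). The signs of Per2, Dbp, Nr1d2, Cry2 and Tef turned under at least 1 other scaling.

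Per3 came closest to a difference among the Per genes. It measured 9.68, 9.74, 9.79 and 9.85 at 1 day, against 9.64, 9.68, 9.72 and 9.66 at 6 h. The arrays overlapped, the difference was 0.09 ± 0.05 (SE), and the adjusted limma p was 0.412. Ciart, a repressor of Clock and Arntl, measured 10.44, 9.99, 10.56 and 10.29 at 1 day, against 10.07, 10.05, 10.15 and 10.37 at 6 h. Its groups overlapped, and its 95% interval of -0.05 to 0.37 still admits a difference larger than most in these data. Cry1 differed by 0.11 ± 0.07 (SE).

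The Ciart and Per3 promoters are shown because each held more clock elements than any other single promoter of the 19 clock genes in the RefSeq table, some of which have several promoters. They are given as above (GRCm38.p6, chr3:95882229-95882478, minus strand and chr4:151044666-151044915, minus strand).
Ciart promoter: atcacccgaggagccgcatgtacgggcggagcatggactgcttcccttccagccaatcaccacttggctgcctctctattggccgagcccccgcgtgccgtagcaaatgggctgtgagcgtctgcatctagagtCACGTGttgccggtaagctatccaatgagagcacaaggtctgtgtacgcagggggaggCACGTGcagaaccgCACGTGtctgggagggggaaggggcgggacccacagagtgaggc
Per3 promoter: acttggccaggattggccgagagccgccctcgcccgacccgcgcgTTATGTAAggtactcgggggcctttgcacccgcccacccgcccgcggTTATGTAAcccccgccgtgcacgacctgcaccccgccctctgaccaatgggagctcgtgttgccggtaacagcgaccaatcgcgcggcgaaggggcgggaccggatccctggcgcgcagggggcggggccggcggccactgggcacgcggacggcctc
The 19 genes had 28 promoters in all. Ciart has 3 E-boxes, at -116, -58 and -44, and 6 of the 28 promoters (in 5 genes) had at least 1, against 7.15% of all promoters. Per3 has D-boxes (TTATGTAA) at -205 and -158, and its promoter was the 1 of the 28 with a D-box, against 0.938% of all promoters. A RORE was found in 2 of the 28 promoters and a cAMP response element (TGACGTCA) in 1, against 2.61% and 1.79% of all promoters. None of the 19, nor of the 11 above, held the full glucocorticoid response element searched by name, which 0.475% of all promoters hold.

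**Figure D3:**
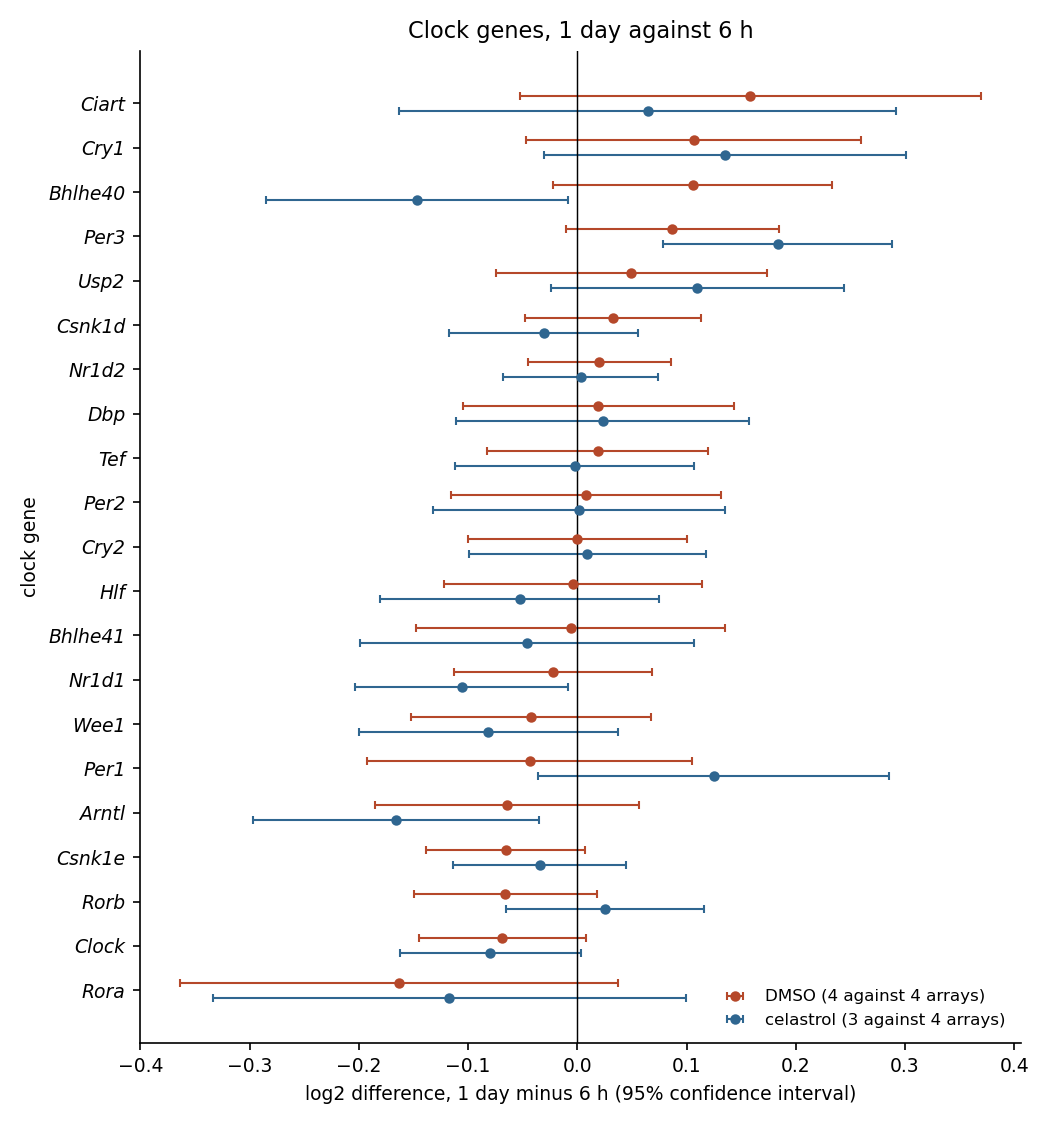
Log2 difference between 1 day and 6 h (x axis) for the 21 clock genes tested, with 95% confidence intervals from limma: DMSO arrays in red above celastrol arrays in blue. All 21 red intervals include 0; in the celastrol arrays 1 gene (Per3) lies above 0 and 3 (Arntl, Bhlhe40, Nr1d1) lie below it.

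Most proteasome subunits had higher values at 1 day, although none passed the adjusted test. The proteasome is the barrel-shaped protease that breaks down ubiquitin-tagged proteins, built from alpha and beta rings (Psma, Psmb) and a regulatory cap (Psmc, Psmd). The family was read off the gene symbols after the values had been seen. Subunit here means any gene with such a symbol and a number, also Psmd5 and Psmd10, which help assemble the cap. Psmd10 (0.17 ± 0.05, SE, no overlap) is in the counts that follow. Of 35 subunits tested 30 were above 0, against 64.4% of all genes tested. At an unadjusted limma p under 0.05, 17 were higher and 0 lower, against 11.6% and 2.44% of all genes tested. Arrays did not overlap in 10 subunits, all higher, against 4.99% of all genes. The median difference was 0.11 log2 units, beside 0.0262 over all genes tested.

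The alpha-ring subunit Psma2 measured 10.15, 9.77, 9.92 and 9.90 at 1 day, against 9.30, 9.57, 9.78 and 9.60 at 6 h. The groups overlapped only through 1 day replicate 2 and 6 h replicate 3, and the difference was 0.37 ± 0.08 (SE, adjusted limma p 0.0699). The cap subunit Psmd1 measured 12.41, 12.20, 12.24 and 12.23 at 1 day, against 11.95, 12.10, 12.11 and 12.02 at 6 h. Its arrays were apart, by a mean of 0.23 ± 0.05 (SE), with an adjusted limma p of 0.0699. Psma6, of the alpha ring, differed by 0.31 ± 0.07, and the cap subunits Psmd6 and Psmd2 by 0.22 ± 0.06 and 0.18 ± 0.05 (SE), each with no overlap. The immunoproteasome subunits Psmb9 and Psmb10 differed by -0.02 ± 0.09 and -0.11 ± 0.06 (SE).

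In 3 of the 4 arrays at 1 day the family stood modestly above 6 h, and in the other much further. The median subunit lay 0.22, 0.06, 0.08 and 0.11 log2 units above its 6 h mean in 1 day replicates 1, 2, 3 and 4. The 4 arrays at 6 h lay between -0.03 and 0.02, and those at 4 days between -0.0015 and 0.04. With 1 day replicate 1 left out, the median difference was 0.09 and 12 subunits were higher with 1 lower at an unadjusted p under 0.05. With both replicate 1 arrays left out, the median was 0.07 with 8 higher and 1 lower. After centring on the median of the genes tested it was 0.08 with 10 higher and 1 lower. Among all genes tested, 873 were higher and 151 lower at that limit without 1 day replicate 1. Without both replicate 1 arrays these counts were 570 and 143, and after the centring 582 and 639.

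Mitochondrial and ribosomal genes had more higher than lower members, as had all genes tested (11.6% higher, 2.44% lower). Of 42 oxidative phosphorylation genes tested, 10 were higher and 0 lower at an unadjusted limma p under 0.05, with a median difference of 0.05. They included Cox5a above, Ndufa4 (0.19 ± 0.05, SE, adjusted limma p 0.0985) and the succinate dehydrogenase subunit Sdha (0.14). Of 33 cytosolic ribosomal protein genes 10 were higher and 1 lower, with a median of 0.08. Rps4x, of the small subunit, differed by 0.24 ± 0.06 (SE), while Rpl10a was the lower one. Of 68 mitochondrial ribosomal protein genes, likewise read off the symbols after values were seen, 17 were higher and 3 lower, with a median of 0.04.

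Without the replicate 1 arrays of both groups the cytosolic ribosomal count was 1 higher and 1 lower, and the oxidative phosphorylation count 5 higher and 2 lower. Of all genes tested, 570 were then higher and 143 lower. On arrays centred on the median of the genes tested the counts were 5 higher and 2 lower for cytosolic ribosomal genes and 7 higher and 2 lower for oxidative phosphorylation genes. The counts over all genes tested were 582 higher and 639 lower on that scale. Transcripts of ribosomal proteins have many near-identical pseudogene copies, and probe sets may share signal between them.

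**Figure D4:**
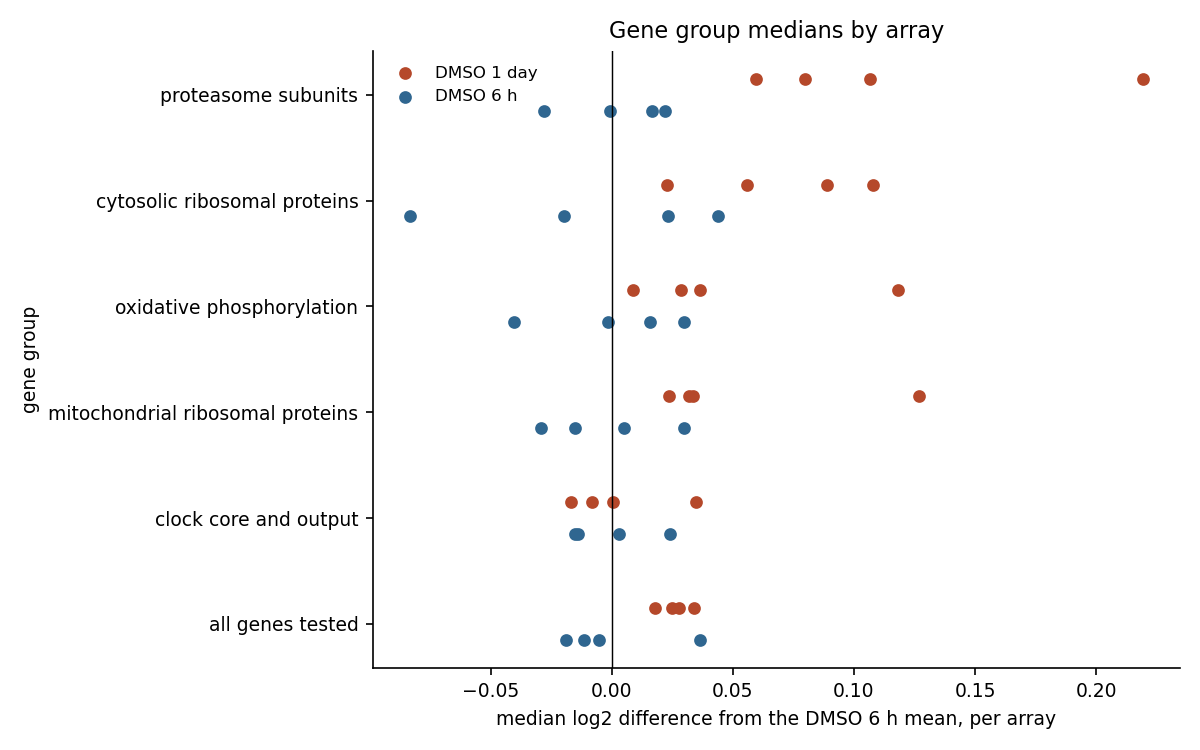
Median log2 difference of each gene group from its DMSO 6 h mean (x axis), 1 point per array, with DMSO 1 day (red) above DMSO 6 h (blue). The proteasome medians at 1 day (0.06 to 0.22) all lie right of those at 6 h (-0.03 to 0.02), whereas the clock medians of the 2 groups overlap. The proteasome and mitochondrial ribosomal groups were chosen after their values were seen.

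Of 23 genes tested that respond to glucocorticoids, 0 had an unadjusted limma p under 0.05 in either direction, against 11.6% higher and 2.44% lower of all genes tested. The chaperone Fkbp5, a standard readout of the hormone, measured 8.76, 8.57, 8.91 and 8.65 at 1 day, against 8.66, 8.66, 8.84 and 8.55 at 6 h. Its arrays overlapped throughout, with a difference of 0.05 ± 0.12 (SE). Tsc22d3 (GILZ) differed by 0.02 ± 0.07 and the metallothionein Mt1 by 0.08 ± 0.05 (SE). The kinase Sgk1 measured 9.69, 9.16, 9.98 and 10.15 at 1 day, against 9.94, 10.07, 10.07 and 9.88 at 6 h. The arrays at 1 day were spread far wider than those at 6 h, and the difference was -0.25 ± 0.19 (SE). Fam107a and the peptide Avp (vasopressin) were the 2 members with arrays that did not overlap, both lower at 1 day (against 0.992% of all genes), at -0.09 and -0.14, with unadjusted limma p-values of 0.0585 and 0.354.

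Of 12 immediate early genes tested, which neurons switch on within minutes of activity, 2 were higher and 1 lower at an unadjusted limma p under 0.05, against 11.6% and 2.44% of all genes tested. Egr1 measured 9.05, 9.26, 9.22 and 9.15 at 1 day, against 8.91, 8.74, 8.93 and 8.98 at 6 h. Its groups were apart by 0.28 ± 0.08 (SE), with an adjusted limma p of 0.153. Dusp5, a phosphatase that dampens ERK, measured 8.44, 8.30, 8.32 and 8.46 at 1 day, against 8.79, 8.53, 8.59 and 8.70 at 6 h. It was apart in the other direction, at -0.27 ± 0.08 (SE, adjusted limma p 0.138), and its 4 arrays at 4 days averaged 8.37.

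Of 3 cold-inducible RNA-binding proteins tested, 2 were higher at an unadjusted limma p under 0.05, against 11.6% of all genes: Rbm3 and Cirbp, which rise when body temperature falls. The third, the splicing factor Srsf5, differed by 0.01 ± 0.05 (SE). Rbm3 measured 11.86, 11.59, 11.89 and 11.75 at 1 day, against 11.38, 11.40, 11.74 and 11.50 at 6 h. Cirbp measured 10.61, 10.37, 10.51 and 10.50 at 1 day, against 10.24, 10.13, 10.46 and 10.28 at 6 h. In both genes replicate 3 was the highest array at 6 h and overlapped the group at 1 day. The differences were 0.26 ± 0.09 and 0.22 ± 0.08 (SE), with adjusted limma p-values of 0.212 and 0.242. Among 18 heat shock genes 1 was higher (Dnajb4, 0.13 ± 0.06) and 1 lower (Hspa4l, -0.12 ± 0.04, SE) at an unadjusted limma p under 0.05.

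No member of the inflammatory lists passed the adjusted test. The interferon-stimulated gene Ifit3 measured 9.43, 9.42, 9.56 and 9.13 at 1 day, against 8.96, 9.11, 8.98 and 8.97 at 6 h. Its groups did not overlap, though 1 day replicate 4 lay just above 6 h replicate 2, and the difference was 0.38 ± 0.08 (SE, adjusted limma p 0.0699). Of 7 interferon-stimulated genes tested 2 were higher and 0 lower at an unadjusted limma p under 0.05, against 11.6% and 2.44% of all genes tested. Lcn2, an acute-phase protein, measured 6.997, 6.61, 7.03 and 7.01 at 1 day, against 6.67, 7.49, 7.47 and 7.38 at 6 h. These are dim values that overlap, all below the lowest array median of 8.58, with a difference of -0.34 ± 0.56 (SE). Lcn2 therefore passed the brightness filter only through arrays outside this comparison, which also enter its SE. The adhesion protein Vcam1 (0.14 ± 0.05) and the complement gene C4b (0.18 ± 0.08, SE) were the 2 of 8 acute-phase and NF-kB genes higher at that limit, and 0 were lower.

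Among the other response lists, 2 of 21 genes of the unfolded protein response were higher and 0 lower, with Asns, which makes asparagine, at 0.14 ± 0.05 (SE). Lipid synthesis had 2 higher and 1 lower of 22, with the sterol enzymes Lss at 0.17 ± 0.06 and Sqle at -0.11 ± 0.05 (SE). In the antioxidant list 0 were higher and 1 lower of 14, the catalase gene Cat at -0.08 ± 0.04 (SE). Of 12 genes of fasting and fatty acid oxidation 0 passed in either direction, with Hadha at 0.09 ± 0.05 and Acadm at 0.11 ± 0.06 (SE). Splicing genes had 3 higher and 1 lower of 22, with Luc7l3 and Tra2b each at 0.14 ± 0.05 (SE). These counts are at an unadjusted limma p under 0.05, at which 11.6% of all genes tested were higher and 2.44% lower.

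No feeding peptide or receptor passed the adjusted test. Of 23 tested in the feeding list 4 were higher and 0 lower at an unadjusted limma p under 0.05, against 11.6% and 2.44% of all genes tested: Npy, Hcrt, Tac1 and Penk. Arrays did not overlap in 4 members, Tac1 and Penk higher at 1 day and the peptides Gal (-0.13 ± 0.11, SE) and Avp lower. Npy, the appetite-raising peptide of the arcuate nucleus, measured 11.47, 10.68, 10.90 and 11.004 at 1 day, against 10.35, 10.57, 10.94 and 10.73 at 6 h. The arrays overlapped and replicate 1 was the highest at 1 day and the lowest at 6 h. The difference was 0.37 ± 0.14 (SE, adjusted limma p 0.244).

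Hcrt measured 13.32, 12.94, 13.00 and 13.08 at 1 day, against 12.94, 12.76, 12.65 and 12.78 at 6 h. Its groups just touched at 12.94, and the difference was 0.30 ± 0.09 (SE, adjusted limma p 0.164). Tac1, the substance P precursor, measured 11.74, 11.45, 11.47 and 11.62 at 1 day, against 11.19, 11.30, 11.43 and 11.34 at 6 h. It did not overlap, with a difference of 0.26 ± 0.07 (SE, adjusted limma p 0.144). Pomc, the precursor of the appetite-suppressing melanocortins and of pituitary ACTH, differed by 0.06 ± 0.13 (SE), and Agrp was not analysed here.

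The widest differences in the comparison were in genes of the pituitary, the thalamus and dopamine neurons and in small non-coding RNAs, and in each the groups overlapped. Of the 8 genes beyond 0.5 log2 units 5 code for proteins (Gh, Cga, Prkcd, Slc6a3 and Chrna6) and 3 are small non-coding RNAs. They were picked out after their values were seen, and their adjusted limma p-values ran from 0.220 to 0.832. Gh, growth hormone of the pituitary, measured 7.82, 7.93, 10.98 and 8.06 at 1 day, against 7.60, 10.57, 9.02 and 11.48 at 6 h. Replicate 3 at 1 day and 3 arrays at 6 h were high, and the difference was -0.97 ± 0.74 (SE). Cga, the shared chain of pituitary glycoprotein hormones, measured 10.32, 9.66, 9.81 and 7.43 at 1 day, against 7.33, 9.87, 10.63 and 11.59 at 6 h. Prl, prolactin, was too dim to test. Among the arrays compared it was above the array median only in 6 h replicate 4, at 10.997. Its next highest value, 8.46 in 1 day replicate 3, was below that array's median of 8.62.

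Over 11 measured pituitary markers the log2 summed intensity was 12.16 to 12.87 at 1 day and 12.14 to 13.69 at 6 h, and 0 of 6 tested had an unadjusted limma p under 0.05. Prkcd, abundant in thalamus, measured 9.16, 8.92, 9.38 and 8.99 at 1 day, against 9.998, 10.44, 9.13 and 9.12 at 6 h. Only replicates 1 and 2 at 6 h were high, and the thalamic marker Plekhg1 had the same 2 arrays highest, at 9.98 and 10.13. Of 8 thalamic markers tested 2 were above 0, against 64.4% of all genes tested, and 6 were below. At an unadjusted limma p under 0.05, 1 was higher and 1 lower, against 11.6% and 2.44% of all genes tested. Slc6a3, the dopamine transporter, measured 10.80, 10.13, 10.48 and 10.73 at 1 day, against 8.50, 9.59, 9.97 and 10.79 at 6 h. Chrna6, a nicotinic receptor subunit of dopamine neurons, had its lowest value of the 8 arrays, 7.44, in the same array, 6 h replicate 1. Whether the cut of the dissection took part in these or any other differences was not tested.

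**Figure D5:**
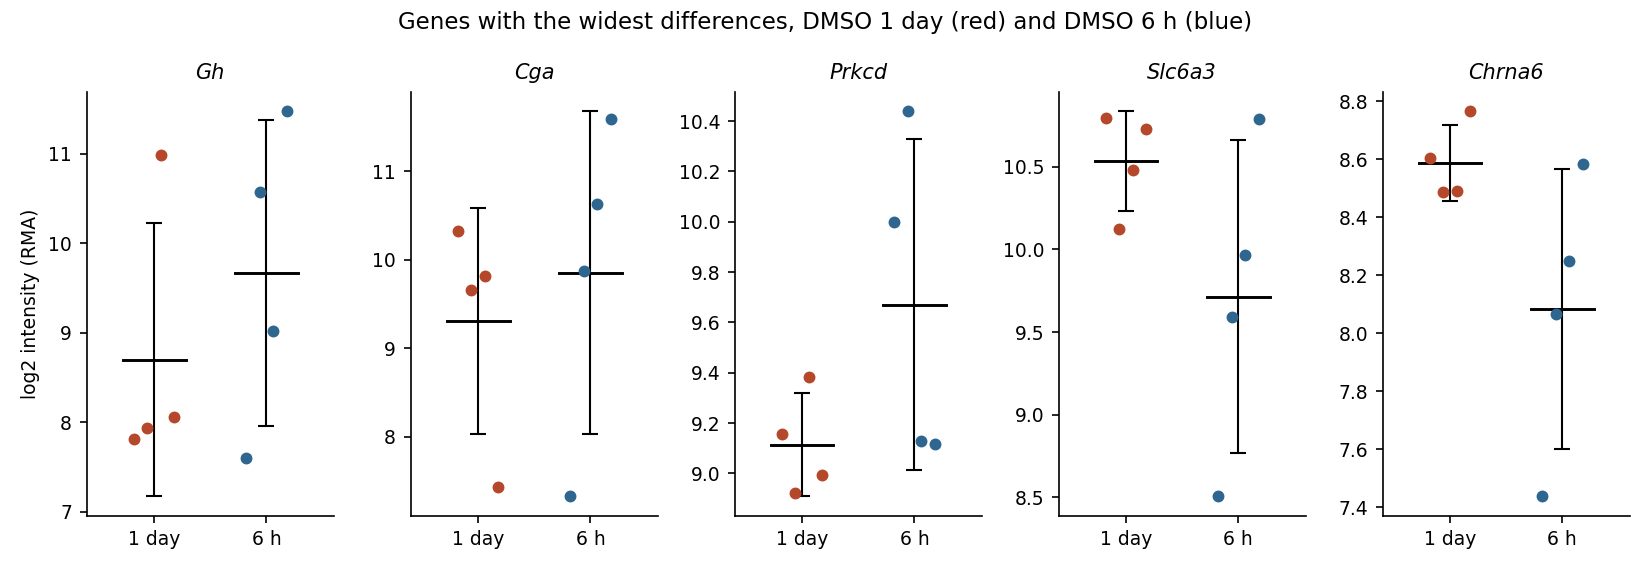
Log2 intensity (y axis, not starting at 0) of the 5 protein-coding genes that differ by more than 0.5 log2 units, in each DMSO array at 1 day (red, left) and 6 h (blue, right), with the mean and SD of 4 arrays. The groups overlap in every panel, and Gh at 6 h spans 7.60 to 11.48.

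No marker of the cell types that make up the tissue passed the adjusted test, and the counts below are at an unadjusted limma p under 0.05, at which 11.6% of all genes tested were higher and 2.44% lower. In bulk tissue fewer cells of a type and less RNA per cell cannot be told apart. Of 11 neuronal markers 0 were inside this limit, and their differences ran from -0.07 to 0.07. The same count was 0 for 8 microglial and 7 oligodendrocyte precursor markers. Of the astrocyte markers, 4 of 13 were higher and 0 lower, led by the membrane protein Mlc1 at 0.18 ± 0.05 (SE). Their log2 summed intensity was 15.98 to 16.01 at 1 day and 15.94 to 15.997 at 6 h, whereas Fabp7, which astrocytes also express, was lower.

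Endothelial markers had 2 of 9 higher, the transporter Slco1a4 (0.17 ± 0.06) and the receptor Tek (0.13 ± 0.05, SE), and oligodendrocyte markers 2 of 11, Mag and Cnp, at 0.09 and 0.10. Mural cells and fibroblasts had 2 of 7 higher, with Acta2, the actin of vessel walls, at 0.31 ± 0.11 (SE). Of 7 ependymal and tanycyte markers only Tmem212, of ciliated ependyma, was inside the limit, at -0.21 ± 0.06 (SE). Choroid plexus markers were mostly dim: 2 of 13 were tested, and Kcnj13 was high in a single array, 1 day replicate 3, at 9.41. Of 8 blood cell markers 4 were measured and 0 were bright enough to test.

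The celastrol arrays give the same interval in other mice, which enter the DMSO test only through the shared estimate of spread and the brightness filter, and here too time, hour of the day and array batch cannot be told apart. Between 1 day and 6 h of celastrol limma called 2 of 9880 genes (0.0202%; 7.37% had an unadjusted p under 0.05), both lower at 1 day, and Fabp7 was one of them, with Naa20 the other. Fabp7 differed by -0.57 ± 0.09 (SE) there, with an adjusted limma p of 0.0146, beside -0.43 in DMSO, and the test of the difference between these 2 values gave an adjusted limma p of 0.763. limma called 0 genes in celastrol without replicate 1 or without replicate 3 at 6 h, and 0 without replicate 2 at 1 day. Other genes with lower values in DMSO had the same sign: Rpl10a differed by -0.14, Nudt9 by -0.25 and Zfp748 by -0.15 in celastrol, each with arrays that did not overlap. Nuak1 differed by -0.15 ± 0.10 and Ccdc32 by -0.06 ± 0.06 (SE), both with overlap.

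Of the 6 genes with higher values in DMSO, 4 had celastrol differences between -0.07 and 0.05. In celastrol Park7 differed by 0.0022, Exoc3 by -0.03, Ikbkg by 0.05 and Zfp622 by -0.07, while Laptm5 and Cox5a each differed by 0.14 with arrays apart. The proteasome median was 0.00 in celastrol, with 0 subunits higher and 1 lower at an unadjusted limma p under 0.05, against 2.34% and 5.03% of all genes tested, and that of oxidative phosphorylation was -0.02. Hcrt differed by 0.33 ± 0.10 and Npy by 0.26 ± 0.15 (SE), close to their DMSO values. Egr1 differed by -0.08 and Sgk1 by 0.67 ± 0.21 (SE), opposite in sign to DMSO. limma called 0 of 9880 genes (0%) for the difference between the DMSO and the celastrol changes, with 817 (8.27%) at an unadjusted p under 0.05 and a lowest adjusted p of 0.581.

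Over all 9880 genes the DMSO and celastrol differences correlated with a Pearson r of 0.21 and a Spearman rho of 0.163, across genes that are not independent and on arrays of 1 platform. Of the 1148 genes higher in DMSO at an unadjusted p under 0.05, 693 (60.4%) were above 0 in celastrol, against 45.7% of all genes tested. Of the 241 lower genes 175 (72.6%) were below 0 in celastrol, against 54.3% of all genes tested. The median celastrol difference was 0.02 for the higher genes and -0.04 for the lower ones, beside 0.14 and -0.14 in DMSO.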

How the data were processed

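RNA of the hypothalamus was measured on Affymetrix whole-transcript arrays after Trizol extraction, column purification and biotin labelling, per the labels' protocols. The deposited values are log2 intensities that the authors made with RMA, per the submitters' processing notes; RMA subtracts background, makes array distributions equal and combines probes into probe sets. The sources used here do not name its version. The deposited table has 23492 probe sets on 22 arrays, with 0 columns of other series and values from 3.83 to 15.2.

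Symbols came from the platform annotation: 20228 probe sets had 1 symbol, 1399 several and 1865 none. Of 18704 genes, 9880 were tested, those brighter than the array's median in 3 or more arrays, and 8824 were set aside as dim. The number of arrays, in place of a read depth, limits the precision.

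A linear model with a mean for each of the 6 groups was fitted by limma 3.58.1 under R 4.3.3, using every array (lmFit, then eBayes; residual degrees of freedom 16, prior 6.06). Tests were two-sided, with Benjamini-Hochberg adjustment over all genes and calls at an adjusted p under 0.05. Intervals are at 95%. Steps were tested on simulated data. Promoters came from RefSeq (GRCm38.p6). Plots used matplotlib 3.10.9 and Python 3.11.15.

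The samples, gene lists and named genes were chosen with earlier results of these data known. Named were the 6 higher and 6 lower genes of smallest p, since none was called, up to 2 members per list by smallest p (up to 4 had they passed) and a fixed set of clock, stress, peptide and pituitary genes; of that set 4 were not tested (Npas2, Agrp, Prl and Ttr). Genes of a pattern like that of the most clearly called gene were to be named, but none was called. Not eligible for naming by smallest p were predicted genes (Gm, Rik and LOC names), non-coding RNAs, olfactory and vomeronasal receptor genes and genes with mt- names. These were still tested and counted. Proteasome and mitochondrial ribosome families, genes beyond 0.5 log2 units and further list members given by name, with Naa20, were chosen after their values were seen.

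Alternatives were a stricter filter (11 arrays) or none, averaging the probe sets that share a gene, all probe sets, other arrays in the filter, a second quantile normalization, array weights, limma-trend, median centring, robust eBayes, fewer arrays in the fit, the replicate number as a block and each array left out. Centring on the median of the genes tested and leaving out both replicate 1 arrays were chosen after seeing the data.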

Additional observations from a re-analysis of the deposited data

Results flagged for a closer look

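Within each group of 4 arrays, 13 of 184 gene and group pairs examined had 1 array whose gap to the nearest other exceeded Dixon's 95% critical share of the range; chance gives about 1 in 20. The array apart was DMSO 1 day replicate 1 in 6 of the 13. It measured 12.24 for Park7 (the other 3 arrays at 12.004 to 12.03), 8.77 for Zfp748 (8.93 to 8.96), 12.37 for Asns (12.09 to 12.12), 11.62 for Mag (11.66 in all 3), 9.31 for Per2 (9.54 to 9.56) and 6.51 for the small nucleolar RNA Snord33 (8.16 to 8.41). DMSO 1 day replicate 3 was apart at 11.68 for Csnk1e, 9.41 for Kcnj13 and 10.98 for Gh, the last a pituitary hormone whose other 3 arrays lay at 7.82 to 8.06. DMSO 1 day replicate 2 was apart at 6.61 for Lcn2. At 6 h, replicate 2 was apart at 9.11 for Ifit3 and 9.33 for Gpr17, and replicate 1 at 6.67 for Lcn2, below the others at 7.38 to 7.49.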

How the results depend on the processing

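For DMSO 1 day against DMSO 6 h the count of 0 became 10 with the 11-array filter (8 higher, 2 lower), 12 with limma-trend (10 and 2), 10 with robust eBayes (8 and 2), 13 with array weights (12 and 1) and 1 (Laptm5) with the replicate block, and it stayed 0 without a filter and under each re-scaling. Leaving out 1 array gave 0 to 46 calls: 46 without DMSO 6 h replicate 3, 1 without DMSO 6 h replicate 4 (Nuak1) and 1 without DMSO 1 day replicate 4 (Ifit3). Over 23 alternatives each, Laptm5 passed in 6 (adjusted p 0.0199 to 0.334), Park7 in 5 (0.0342 to 0.491) and Fabp7 in 5 (0.0342 to 0.334), with no change of direction. Deviations of same-numbered arrays correlated at -0.082 to 0.138, and those of differently numbered arrays at -0.19 to 0.184. With so few pairs this cannot settle whether the numbers pair the samples.

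At an unadjusted p under 0.05 the 1389 genes ranged from 973 to 1721 with 1 array left out, the higher ones from 755 to 1498 and the lower ones from 151 to 302; without both replicate 1 arrays there were 713 (570 higher, 143 lower). The higher and lower counts were 741 and 519 after a second quantile normalization, 740 and 468 after median centring and 582 and 639 after centring on the median of the genes tested. The lower count was 159 with only the groups compared, 480 without a filter and 526 over all probe sets with 1 symbol. The 2 celastrol calls became 0 with only the groups compared, 0 without a filter and 68 with array weights, and 0 to 8 with 1 array left out. The causes were not tested.

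The log2 differences of genes whose sign turned were, after a second quantile normalization, -0.0078 (Kl), -0.0160 (Per2), -0.0029 (Dbp), -0.0260 (Cry2), -0.0113 (Tef) and -0.0039 (Tsc22d3). After median centring they were -0.0085 (Kl), -0.0134 (Per2), -0.0025 (Dbp), -0.0014 (Nr1d2), -0.0217 (Cry2) and -0.0032 (Tef). After centring on the genes tested they were -0.0178 (Kl), -0.0227 (Per2), -0.0118 (Dbp), -0.0107 (Nr1d2), -0.0310 (Cry2), -0.0125 (Tef) and -0.0078 (Tsc22d3). Array weights gave 0.0337 (Per1), -0.0210 (Cry2), -0.0072 (Tef), 0.0346 (Hlf) and 0.0538 (Bhlhe41). Without both replicate 1 arrays the values were 0.0445 (Per1), -0.0090 (Dbp), -0.0003 (Nr1d2), -0.0101 (Cry2), -0.0337 (Tef), 0.0242 (Hlf) and 0.0542 (Bhlhe41). With 1 array left out the ranges were -0.0173 to 0.0689 (Per2), -0.0435 to 0.0519 (Cry2), -0.0141 to 0.052 (Tef), -0.0233 to 0.1827 (Pomc), -0.0648 to 0.0964 (Kl), -0.0291 to 0.0394 (Hlf), -0.0195 to 0.0608 (Tsc22d3), -0.0638 to 0.0101 (Nr1d1), -0.0487 to 0.0706 (Bhlhe41), -0.5341 to 0.0296 (Lhb), -0.1013 to 0.046 (Per1), -0.2608 to 0.49 (Kcnj13) and -0.0154 to 0.1014 (Fkbp5).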
